A study of Homo sapiens with 12 samples.

Results

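Integrins are receptors made of an alpha and a beta subunit that tie the cell to the matrix outside it and to the actin or keratin filaments inside it. Laminins are cross-shaped matrix proteins made of an alpha, a beta and a gamma chain, and they form the sheet of the basement membrane on which kidney tubule cells sit. Laminins are ligands of several integrins, so that the chains a cell makes and the subunits it carries together set what it can bind.

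The genes described here were the 38 genes, of 58302 in the deposited tables, whose symbol names an integrin alpha subunit (18 genes), an integrin beta subunit (8 genes) or a laminin alpha, beta or gamma chain (5, 4 and 3 genes). They are all the genes of the tables that meet that rule on symbols. They were followed in 2 human renal carcinoma cell lines, 769-P and ACHN, which the labels call clear cell renal cell carcinoma (ccRCC) cells. In each line the study transfected cells with a mixture of siRNAs against NUF2 (siNUF2, NUF2 knockdown) or with a control siRNA (siControl), extracted total RNA after 48 h and sequenced it, with 3 libraries in each of the 4 groups. Every cell had thus received an siRNA, the lines were grown in different media (RPMI-1640 for 769-P and Eagle's MEM for ACHN), and each line is a single line, so that line and medium cannot be told apart. The sources used here do not say whether the 3 libraries of a group came from separate cultures, so that p-values measure the spread between these libraries, which may be technical.

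Levels are FPKM as the authors deposited them, that is, fragments per kilobase of exon scaled to the size of the library, so that levels of different genes are set per length. The libraries held between 29156132 and 38662438 reads in genes, recovered from the steps in the low FPKM values. NUF2, a component of the kinetochore and the target of the siRNA, stood at 19.4, 17.8 and 17.8 FPKM in 769-P siControl and at 4.17, 3.86 and 3.01 FPKM after siNUF2. In ACHN it stood at 11.6, 15.0 and 14.8 FPKM in siControl and at 2.16, 5.14 and 4.25 FPKM after siNUF2, so that every knockdown library lay below every control library of its line. Of the renal markers, PAX8, PAX2, KRT8, KRT18 and VIM were present in every library, whereas CA9, which ccRCC usually carries, did not exceed 0.121 FPKM in any, NDUFA4L2 was near 0 in 769-P and CDH6 was near 0 in ACHN. All 5 leukocyte markers and all 3 endothelial markers were under 0.5 FPKM in every library, and all 3 platelet markers were at 0.

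The integrin beta1 subunit gene ITGB1 and its laminin-binding partner ITGA3 were the 2 members with the highest mean FPKM in both siControl groups. ITGB1, which pairs with most alpha subunits, had levels of 346, 322 and 356 FPKM in 769-P siControl and of 246, 178 and 234 FPKM in ACHN siControl. ITGA3 had levels of 248, 209 and 196 FPKM in 769-P and of 310, 211 and 239 FPKM in ACHN, and the lines overlapped. Of the 38 members, 18 were at or above 1 FPKM in every library, 12 were under 1 FPKM in every library, and 5 passed 100 FPKM in at least 1 library. ITGA5, the fibronectin receptor subunit, lay between 13.6 and 28.9 FPKM over the 12 libraries, and ITGB5, an alphaV partner, between 25.4 and 54.4 FPKM.

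The members under 1 FPKM in every library were ITGA2B, ITGA8, ITGA9, ITGA10, ITGAD, ITGAL, ITGAX, ITGB7, LAMA2, LAMA4, LAMB4 and LAMC3. Of these, ITGA8, a partner of beta1, was listed at 0 in all 12 libraries. ITGAD, a leukocyte alpha subunit, lay between 0.282 and 0.553 FPKM in the 769-P libraries and between 0 and 0.00662 FPKM in the ACHN libraries. ITGAX, another leukocyte subunit, lay between 0.239 and 0.630 FPKM in 769-P and between 0.00387 and 0.0578 FPKM in ACHN.

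The ACHN libraries of a group differed from each other more in these genes than in most genes. Of the 27 members tested in ACHN, 14 differed by more than 2-fold between the highest and the lowest siControl library, or 51.9% against 17.1% of all genes tested. Among these 14, ITGA11, ITGAM and LAMA2 passed the filter only through their higher libraries, which favours a wide spread. ITGA1, a collagen-binding subunit, had levels of 19.8, 2.93 and 17.3 FPKM in ACHN siControl replicates 1, 2 and 3 and of 16.2, 2.38 and 10.4 FPKM in the siNUF2 replicates of the same numbers. Replicate 2 was thus the lowest library under both siRNAs.

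ITGB3, an alphaV partner, had levels of 25.3, 4.32 and 5.03 FPKM in ACHN siControl and of 19.6, 3.53 and 2.96 FPKM after siNUF2, with replicate 1 the highest of each group. ITGA11, a collagen-binding subunit, had levels of 0.176, 2.51 and 0.351 FPKM in siControl and of 0.330, 1.88 and 0.543 FPKM after siNUF2, with replicate 2 the highest. ITGB6, a partner of alphaV found on epithelia, had levels of 11.5, 35.3 and 41.8 FPKM in siControl and of 15.0, 37.4 and 57.1 FPKM after siNUF2. Here replicate 1 was the lowest under both siRNAs.

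Of the 27 members, 20 had the same highest replicate number under both siRNAs in ACHN, and on scaled values 17 kept the whole order of the 3 numbers (63.0%, against 51.5% of all genes tested). The median SD between libraries on the log2 scale was 0.544 for the members in ACHN siControl and 0.581 in ACHN siNUF2, against 0.221 and 0.214 over all genes. In 769-P the members' median SD was 0.154 in each group, against 0.144 in siControl and 0.133 in siNUF2 over all genes, and 1 of 20 members passed 2-fold between the siControl libraries. The fibroblast markers COL1A1 and PDGFRB also varied between the ACHN libraries: COL1A1 had levels of 1.14, 3.87 and 1.76 FPKM and PDGFRB of 0.232, 1.17 and 0.358 FPKM in siControl, whereas COL1A2, DCN and LUM, the other 3 fibroblast markers, were under 0.5 FPKM in every library. The summed level of the fibroblast markers lay between 1.40 and 5.08 FPKM in ACHN siControl and between 0.0882 and 0.241 FPKM in 769-P siControl, and its part in the spread was not tested. In bulk samples, fewer cells of a kind and less RNA per cell cannot be told apart.

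**Figure D1:**
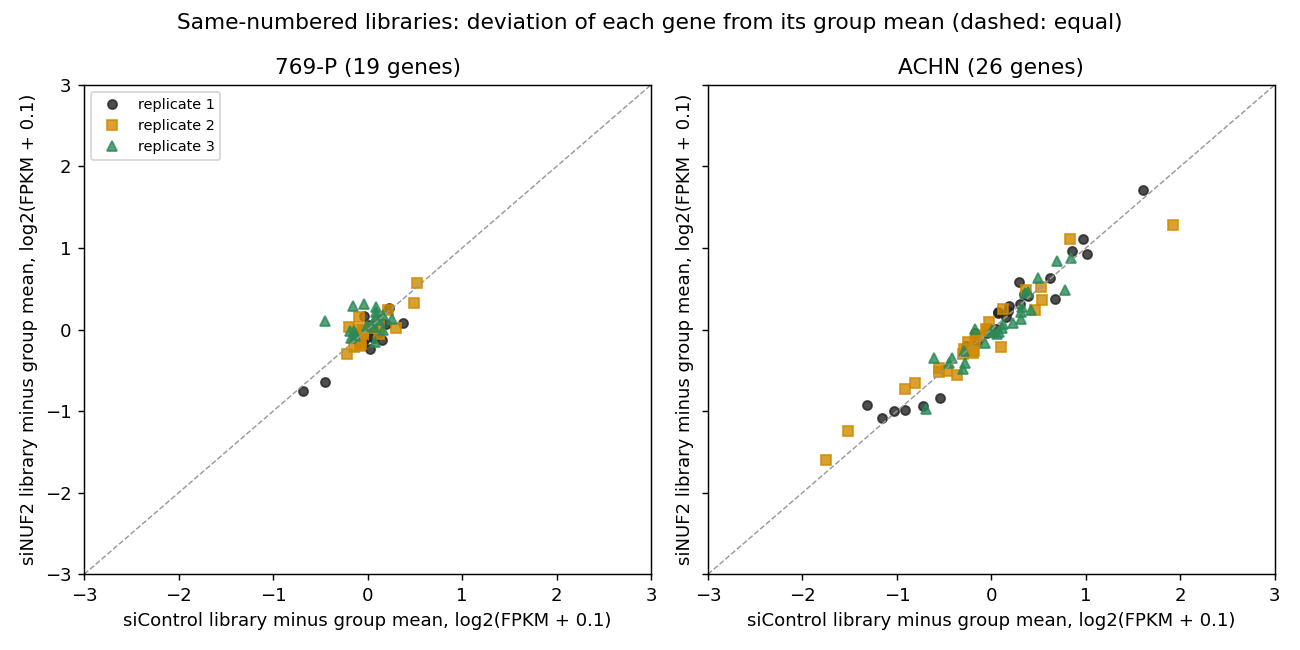
Deviation of each member from its group mean in log2(FPKM + 0.1), with the siControl library on the horizontal axis and the siNUF2 library of the same number on the vertical axis, for members tested in each line. In ACHN the points of all 3 numbers lie along the dashed line of equal deviation and reach far from 0, and in 769-P most lie close to 0.

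Libraries with the same number therefore went together in ACHN. In 769-P this was weaker: 8 of 20 members kept the order of the 3 numbers (40%, against 35.9% of all genes). Their deviations correlated at 0.852, 0.837 and 0.235 for numbers 1, 2 and 3, and at 0.266 for siNUF2 replicate 3 with siControl replicate 2. The fits of the knockdown are given below both without and with the replicate number as a block, which compares each siNUF2 library with the siControl library of its number. Differences are given on the scale of log2(FPKM + 0.1) after scaling, each with its standard error (SE), and were tested with limma across all genes, with p-values adjusted by the Benjamini-Hochberg method and called at an adjusted p below 0.05. Only members that reached a scaled FPKM of 0.5 in 3 libraries were tested.

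The first comparison was of 769-P with ACHN under siControl, which asks how the untargeted lines differ. The lines differed most in genes that ACHN carried and 769-P nearly lacked: the leukocyte-type beta subunit ITGB2, the laminin alpha chain LAMA1, ITGA4 and ITGA1. These 4 passed the filter through ACHN alone and so could hardly fail to differ, and they are among the 10 lower members counted next. LAMA5 and ITGB8 were higher in 769-P. Of 26 members tested, 14 were called, 4 higher and 10 lower in 769-P, which is 53.8% of the members against 61.5% of all 15376 genes tested (32.2% higher and 29.3% lower). The count of members that differed between the lines was thus not above the background, and with the replicate number as a block it was again 4 higher and 10 lower, against 59.5% of all genes (31.0% and 28.4%). Across the lines the same number was not taken to mark a pair, so that the block is arbitrary in both comparisons of the lines.

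Among the integrins, ITGB2 (chromosome 21, 44885953 to 44931989 on the minus strand of GRCh38), the beta subunit of the leukocyte integrins, stood at 0.0649, 0.0550 and 0.0409 FPKM in 769-P siControl, or between 9 and 13 reads a library. In ACHN siControl it stood at 12.8, 13.2 and 18 FPKM, or between 2739 and 4311 reads. The log2 difference was -6.55 (SE 0.18, limma, adjusted p = 1.5e-06), and the lines did not overlap. After siNUF2 the difference was -6.97 (SE 0.14, limma, adjusted p = 8.6e-07), and there too ITGB2 passed the filter through ACHN alone.

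The leukocyte alpha subunits that pair with ITGB2 did not follow it. ITGAL lay between 0 and 0.0264 FPKM over all 12 libraries, ITGAX and ITGAD were lower in ACHN than in 769-P as given above, and ITGAM stood at 0.360, 0.407 and 0.567 FPKM in 769-P siControl and at 0.309, 1.10 and 1.07 FPKM in ACHN siControl, which overlapped. PTPRC, the pan-leukocyte marker, was among the 5 leukocyte markers under 0.5 FPKM. ITGB2-AS1, a gene on the opposite strand that shares 4.46% of the ITGB2 exon bases, had levels of 7.96, 3.99 and 8.45 FPKM in ACHN siControl and at most 0.0800 FPKM in 769-P, and whether reads were counted by strand is not given in the sources used here.

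ITGA4, which pairs with beta1 or beta7 and binds VCAM1 and fibronectin, stood at 0.0731, 0.0671 and 0.0430 FPKM in 769-P siControl and at 5.14, 6.02 and 7.76 FPKM in ACHN siControl (log2 difference -5.27, SE 0.21, limma, adjusted p = 4.6e-06). ITGB7, its other partner, was at or under 0.189 FPKM in every library. ITGA1 stood at 0.240, 0.292 and 0.324 FPKM in 769-P siControl, below each of the ACHN values given above (log2 difference -4.69, SE 0.69, limma, adjusted p = 0.0011). These 4 genes, ITGB2, LAMA1, ITGA4 and ITGA1, passed the filter through ACHN alone and so could hardly fail to differ.

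Of the alphaV partners, ITGB6 stood at 5.66, 4.55 and 4.39 FPKM in 769-P siControl, below every ACHN siControl library (log2 difference -2.35, SE 0.46, limma, adjusted p = 0.0043). ITGB8, which with alphaV activates latent TGF-beta, went the other way, with levels of 1.58, 3.76 and 2.91 FPKM in 769-P and of 1.03, 1.05 and 0.853 FPKM in ACHN (log2 difference 1.36, SE 0.31, limma, adjusted p = 0.0077). ITGAV itself stood at 31.0, 30.4 and 36.5 FPKM in 769-P siControl and at 48.3, 47.7 and 67.2 FPKM in ACHN siControl (log2 difference -0.69, SE 0.16, limma, adjusted p = 0.008). ITGB6 and ITGAV were thus the lower, and ITGB8 the higher, in 769-P.

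The other integrin calls were smaller. ITGB1 was higher in 769-P by 0.69 on the log2 scale (SE 0.14, limma, adjusted p = 0.0046), and ITGAE, which pairs with beta7 to bind E-cadherin, was higher by 0.54 (SE 0.11, adjusted p = 0.0058). ITGA7, a laminin-binding subunit best known from muscle, had a log2 difference of -1.24 (SE 0.38, adjusted p = 0.0261), and was not called without 769-P replicate 1 or 3 or without ACHN replicate 2 or 3 (adjusted p between 0.0631 and 0.0840). ITGA2, the alpha subunit of a collagen and laminin receptor, was not called without the block (log2 difference -0.51, limma, adjusted p = 0.0719). It passed the threshold only with the block (adjusted p = 0.0442), which is arbitrary between the lines. The 6 integrins tested in all 6 libraries but called in neither fit were ITGA3, ITGA5, ITGA6, ITGB3, ITGB4 and ITGB5, with log2 differences between -0.17 for ITGA3 and 0.31 for ITGA5.

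Among the laminins, LAMA1 (chromosome 18, 6941744 to 7117814 on the minus strand of GRCh38) stood at 0.0214, 0.0216 and 0.0136 FPKM in 769-P siControl, or between 7 and 11 reads. In ACHN siControl it stood at 9.78, 7.54 and 8.64 FPKM, or between 4612 and 4872 reads (log2 difference -6.17, SE 0.17, limma, adjusted p = 1.5e-06). LAMA1 passed the filter through ACHN alone, so that this test could hardly fail. LAMA5, an alpha chain of tubule and glomerular basement membrane, stood at 82.6, 85.4 and 69.1 FPKM in 769-P siControl and at 33.3, 12.5 and 15.0 FPKM in ACHN siControl (log2 difference 2.13, SE 0.35, limma, adjusted p = 0.0018). LAMA3, the alpha chain of epithelial anchoring laminin, had levels of 10.4, 10.4 and 11.4 FPKM in 769-P and of 40.8, 13.7 and 14.8 FPKM in ACHN, did not overlap and was not called (log2 difference -0.87, SE 0.40, adjusted p = 0.0987).

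The alpha chains thus made up different mixtures in the lines. LAMA5 held 87.5% ± 1.83 (SD, n = 3) of the summed alpha chain FPKM in 769-P siControl and 38.1% ± 1.65 (SD, n = 3) in ACHN siControl. LAMA3 held 12% ± 1.83 (SD, n = 3) and 42.1% ± 5.67 (SD, n = 3), and LAMA1 held 0.0207% ± 0.0034 (SD, n = 3) and 18.6% ± 6.02 (SD, n = 3). Each of these 3 differences gave a two-sided exact permutation p of 0.1, the smallest that 3 against 3 libraries allow. After siNUF2 the share of LAMA5 was 83.1% ± 1.47 (SD, n = 3) in 769-P and 31.1% ± 3.76 (SD, n = 3) in ACHN, in each line below every siControl library (exact permutation p = 0.1 in each line).

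**Figure D2:**
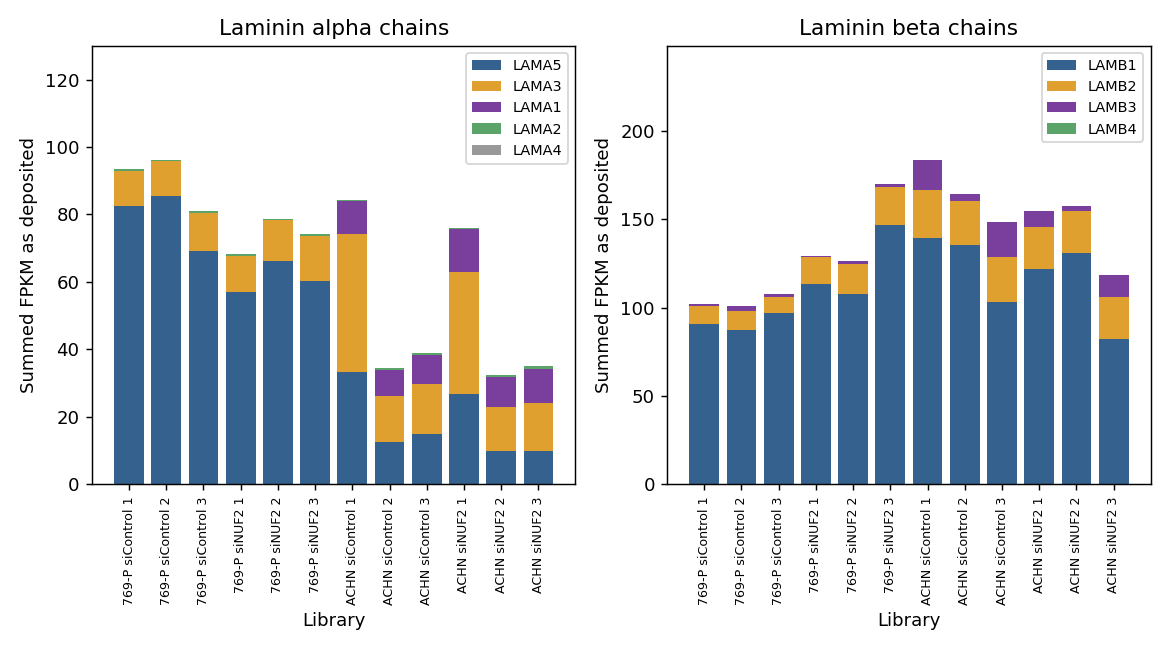
Summed FPKM of the laminin alpha and beta chains in each of the 12 libraries, stacked by gene. LAMA5 holds a larger share of the alpha chain bar in every 769-P library than in any ACHN library, and LAMB1 makes up most of the beta chain bar in all 12 libraries.

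Of the beta chains, LAMB2, a chain of mature basement membrane, stood at 10.4, 11.1 and 9.17 FPKM in 769-P siControl and at 26.8, 24.9 and 25.9 FPKM in ACHN siControl (log2 difference -1.30, SE 0.10, limma, adjusted p = 6.8e-05). LAMB3, a beta chain that joins LAMA3, stood at 1.31, 2.61 and 1.78 FPKM in 769-P and at 17.5, 3.76 and 19.6 FPKM in ACHN (log2 difference -2.48, SE 0.63, limma, adjusted p = 0.0124). LAMB1, the widely used beta chain, had a log2 difference of -0.41 (SE 0.13, limma, adjusted p = 0.0329), which was not called with the block (adjusted p = 0.0608) or in 5 of the 6 fits that leave out a library (up to 0.108). LAMC1 was not called (log2 difference -0.57, adjusted p = 0.167), and the lines overlapped.

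After siNUF2 the same comparison tested 24 members and called 13, 5 higher and 8 lower in 769-P, which is 54.2% against 61.8% of all genes (32.2% and 29.6%). ITGB2, LAMA1, ITGA4 and ITGA1 again passed the filter through ACHN alone, so that a lower call of any of them could hardly fail. With the block, which is arbitrary here too, it called 12, 4 higher and 8 lower, against 57.2% of all genes (29.6% and 27.7%). ITGB4, the laminin receptor of hemidesmosomes, was not called under siControl (log2 difference 0.13, adjusted p = 0.783) and was higher in 769-P after siNUF2 (log2 difference 1.45, SE 0.45, limma, adjusted p = 0.0284). That call was lost without any 1 of the libraries other than ACHN replicate 2 (adjusted p up to 0.0904). LAMB2 and ITGB8 were called after siNUF2 at adjusted p = 0.0475 and 0.0481, and neither was called with the block (adjusted p = 0.0625 and 0.0797) or in 5 of the 6 fits that leave out a library (up to 0.136 for each).

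The second comparison was of siNUF2 with siControl in 769-P, which asks which members move with NUF2 knockdown. Without the block 3 of 20 members were called, which is 15.0% against 9.98% of all 14155 genes tested (5.26% higher and 4.71% lower): ITGB4 and LAMB2 rose and LAMC1 fell. With the block 9 of 20 were called, 3 higher and 6 lower, which is 45.0% against 27.5% of all genes (13.6% and 13.9%). The additional calls included LAMB1, higher, and ITGA2, LAMA5, ITGAV and ITGA6, lower. In 17 of the 20 members all 3 same-numbered pairs moved in 1 direction, which is 85.0% against 63.0% of all genes, with 8 higher and 9 lower.

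ITGB4 (chromosome 17, 75721328 to 75757818 on the plus strand of GRCh38) had the largest change of the members. It stood at 8.07, 8.96 and 5.26 FPKM in 769-P siControl and at 19.4, 21.5 and 22.7 FPKM after siNUF2, so that the groups did not overlap and the ratio of the means was 2.85. The log2 difference was 1.54 (SE 0.19, limma, adjusted p = 0.0083 without and 0.0080 with the block). It was called in all 6 fits that leave out a library, with log2 differences between 1.31 and 1.69, but not in 1 fit over all 12 libraries, which shares 1 estimate of the spread with ACHN (adjusted p = 0.0973). Its only known alpha partner, ITGA6, stood at 14.6, 14.9 and 16.8 FPKM in siControl and at 12.2, 12.6 and 14.0 FPKM after siNUF2. ITGA6 fell by 0.24 on the log2 scale with the block (adjusted p = 0.018, against 0.125 without it), opposite to ITGB4.

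LAMB2 (chromosome 3, 49121114 to 49133118 on the minus strand of GRCh38) stood at 10.4, 11.1 and 9.17 FPKM in 769-P siControl and at 15.2, 17.1 and 21.8 FPKM after siNUF2. The groups did not overlap, and the log2 difference was 0.81 (SE 0.14, limma, adjusted p = 0.0198 without and 0.0188 with the block). Without siNUF2 replicate 2, siControl replicate 2 or siControl replicate 3 it was not called (adjusted p = 0.0517, 0.0530 and 0.0695), with log2 differences of 0.84, 0.87 and 0.73, nor without the filter on low values (0.0538). LAMB1 stood at 90.5, 87.0 and 96.9 FPKM in siControl and at 113, 108 and 147 FPKM after siNUF2, and its log2 difference of 0.42 was called with the block only (adjusted p = 0.0732 without and 0.0155 with it). Both beta chains that join LAMC1 were thus at higher levels in every knockdown library than in any control library.

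LAMC1 (chromosome 1, 183023460 to 183145592 on the plus strand of GRCh38), the gamma chain of most laminins, went the other way. It stood at 89.7, 98.4 and 101 FPKM in 769-P siControl and at 64.1, 66.6 and 67.1 FPKM after siNUF2, a ratio of the means of 0.683. It fell by 0.54 on the log2 scale (SE 0.06, limma, adjusted p = 0.0075 without and 0.0051 with the block) and was called in all 6 fits that leave out a library, but not in the fit over all 12 libraries (adjusted p = 0.443).

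LAMA5 stood at 57, 66.2 and 60.3 FPKM after siNUF2, below each of the siControl values given above, and fell by 0.35 on the log2 scale with the block (SE 0.07, limma, adjusted p = 0.0251, against 0.0685 without it). ITGAV stood at 26.2, 26.2 and 26.1 FPKM after siNUF2, below each siControl library, and fell by 0.30 with the block (SE 0.06, adjusted p = 0.0292, against 0.0656 without it). ITGA2 stood at 2.91, 2.56 and 3.62 FPKM in siControl and at 2.27, 1.61 and 2.19 FPKM after siNUF2, and fell by 0.55 with the block (SE 0.09, adjusted p = 0.0165, against 0.0996 without it). None of these 3 genes overlapped between the groups, which was so for 9 of the 20 members (45.0%) and for 33.3% of all genes.

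The 11 members called in neither fit in 769-P had log2 differences between -0.40 for LAMB3 and 0.17 for ITGB6. ITGB1 (log2 difference 0.12) and ITGA3 (0.03), the members with the highest levels, were among them, and so were ITGA5 (-0.12) and the alphaV partners ITGB3, ITGB5, ITGB6 and ITGB8. The 18 members that were not tested in 769-P were at or under 0.630 FPKM in each of its libraries.

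The third comparison was of siNUF2 with siControl in ACHN. Without the block none of 27 members was called by limma, nor was any of all 15116 genes tested. In that fit 2 members and 1238 of all genes had an unadjusted p below 0.05, and limma-voom on the recovered reads called 0 members. NUF2 itself, the target of the siRNA, was not called in that limma fit either (log2 difference -1.87) and was called lower with the block. The absence of calls without the block thus says little about the members. With the block 6 of 27 members were called, which is 22.2% against 12.2% of all genes (7.14% higher and 5.05% lower): LAMA1 was higher, and ITGA2, LAMB3, LAMC1, LAMA5 and ITGAV were lower. All 3 pairs moved in 1 direction in 18 of the 27 members, which is 66.7% against 54.8% of all genes, with 4 higher and 14 lower.

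ITGA2 had the largest of these changes. It stood at 5.44, 3.41 and 4.68 FPKM in ACHN siControl and at 3.59, 1.56 and 2.30 FPKM after siNUF2, and fell by 0.87 on the log2 scale with the block (SE 0.12, limma, adjusted p = 0.0203, against 0.559 without it). The groups overlapped, but each knockdown library was below the control library of its number. LAMB3 stood at 17.5, 3.76 and 19.6 FPKM in siControl and at 9.13, 2.90 and 12.9 FPKM after siNUF2, and fell by 0.61 with the block (SE 0.11, adjusted p = 0.0331, against 0.961 without it).

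LAMC1 stood at 192, 83.5 and 197 FPKM in ACHN siControl and at 144, 68.8 and 128 FPKM after siNUF2, and fell by 0.42 on the log2 scale with the block (SE 0.07, limma, adjusted p = 0.0298, against 0.932 without it). LAMA5 stood at 26.7, 9.82 and 9.70 FPKM after siNUF2 and fell by 0.41 with the block (SE 0.07, adjusted p = 0.0345, against 0.960 without it). ITGAV stood at 39.2, 39.0 and 52.4 FPKM after siNUF2 and fell by 0.30 with the block (SE 0.04, adjusted p = 0.0206, against 0.802 without it). Each of the 3 was lower than the control of its number in all 3 pairs, and in each the groups overlapped.

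LAMA1, which 769-P nearly lacked, stood at 12.7, 8.66 and 10.2 FPKM after siNUF2 and was higher by 0.29 on the log2 scale with the block (SE 0.06, limma, adjusted p = 0.0438, against 0.790 without it). ITGB8 had the largest positive log2 difference in ACHN (0.51), with levels of 1.63, 1.21 and 1.43 FPKM after siNUF2, above each siControl library, and was called in neither fit (adjusted p = 0.0877 with the block). ITGB4 stood at 4.62, 12.1 and 5.54 FPKM in siControl and at 4.35, 17.1 and 6.54 FPKM after siNUF2, with a log2 difference of 0.23 (adjusted p = 0.225 with the block). The other members not called in ACHN with the block had log2 differences between -0.45 for ITGB3 and 0.32 for ITGB6.

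The ACHN calls depended on which pairs were in the fit. With the block and without pair 1, ITGA2 alone was called (limma, adjusted p = 0.0319, against 3.52% of all genes). Without pair 2 the calls were ITGA2, LAMC1, LAMB3 and ITGB6 (against 7.49% of all genes). Without pair 3 no member and none of 14279 genes was called. There 11 of 24 members and 3425 of all genes had an unadjusted p below 0.05. In 769-P the same fits called 5, 5 and 11 of 20 members without pairs 1, 2 and 3, against 17.3%, 12.5% and 22.4% of all genes, and ITGB4, LAMB2, LAMB1 and LAMC1 were called in each of them.

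With the block, 4 members were called in both lines, ITGA2, ITGAV, LAMA5 and LAMC1, and all 4 were lower after siNUF2 in both. That is 20% of the 20 members tested in both lines, while 8.75% of the 12930 genes tested in both were called in both and 3.30% were lower in both. The 2 lines share no libraries in these comparisons. The log2 differences in 769-P and in ACHN were -0.55 and -0.87 for ITGA2, -0.30 and -0.30 for ITGAV, -0.35 and -0.41 for LAMA5, and -0.54 and -0.42 for LAMC1. Other members moved 1 way without being called in both lines: ITGA7, ITGB3 and LAMB3 were also lower in all 3 pairs of each line. ITGB1, ITGB6 and ITGB8 were higher in all 3 pairs of each line. The start regions of the 4 genes called in both lines are shown so that their sequences can be read side by side. They are RefSeq promoters of GRCh38.p14, from 250 bases before to 50 bases after the start, on the strand of the gene, with every GC box in capitals, that is, GGGCGG or its reverse complement. For ITGAV the first of 2 listed promoters is shown.

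ITGA2, chr5:52989102-52989401, plus strand: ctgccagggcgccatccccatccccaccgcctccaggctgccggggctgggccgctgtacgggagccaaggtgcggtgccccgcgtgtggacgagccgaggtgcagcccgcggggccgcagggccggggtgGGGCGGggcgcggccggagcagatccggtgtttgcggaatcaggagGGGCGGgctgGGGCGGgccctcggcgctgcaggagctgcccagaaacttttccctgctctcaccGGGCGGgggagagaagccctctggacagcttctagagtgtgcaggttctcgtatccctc
ITGAV, chr2:186589806-186590105, plus strand: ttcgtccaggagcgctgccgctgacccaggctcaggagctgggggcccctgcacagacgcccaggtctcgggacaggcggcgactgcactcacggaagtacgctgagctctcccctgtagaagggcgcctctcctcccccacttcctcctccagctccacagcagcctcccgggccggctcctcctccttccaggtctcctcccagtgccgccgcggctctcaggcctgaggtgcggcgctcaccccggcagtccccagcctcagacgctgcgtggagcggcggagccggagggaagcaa
LAMA5, chr20:62367263-62367562, minus strand: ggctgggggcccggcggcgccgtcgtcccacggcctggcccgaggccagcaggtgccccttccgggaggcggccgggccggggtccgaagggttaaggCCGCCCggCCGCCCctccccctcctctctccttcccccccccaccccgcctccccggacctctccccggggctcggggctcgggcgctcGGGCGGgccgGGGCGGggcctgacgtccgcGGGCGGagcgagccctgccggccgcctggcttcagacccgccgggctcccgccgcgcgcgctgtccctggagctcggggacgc
LAMC1, chr1:183023170-183023469, plus strand: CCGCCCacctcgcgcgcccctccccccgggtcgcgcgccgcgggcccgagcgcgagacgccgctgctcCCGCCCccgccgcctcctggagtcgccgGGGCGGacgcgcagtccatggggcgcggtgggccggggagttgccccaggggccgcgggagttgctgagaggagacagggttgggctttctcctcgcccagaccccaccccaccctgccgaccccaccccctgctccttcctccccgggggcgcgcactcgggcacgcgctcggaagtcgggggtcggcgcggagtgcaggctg

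The counts of GC boxes on both strands were 4 in ITGA2, 0 in ITGAV, 5 in LAMA5 and 3 in LAMC1. Of all 35116 promoters of 300 bases, 45.0% held at least 1, and of the 33 promoters that 26 of the 38 members had, 19 did. The AP-1 motif TGANTCA, the CCAAT box and the TATA box TATAAA, searched on both strands, were in none of these 4 windows, and 7.71%, 34.6% and 11.5% of all promoters held them. These matches describe letters in a window and are not binding sites.

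The difference of the response between the lines was then tested, since a call in 1 line and not in the other does not show that they differ. No member was called, without the block (0 of 27, and 0 of 16564 genes) or with it (0 of 27, against 1.52% of all genes, 0.875% more positive in 769-P and 0.640% more negative). An unadjusted p below 0.05 was seen for 2 and 7 members, and for 776 and 3300 of all genes. LAMB1 (0.59), LAMB2 (0.90), ITGB4 (1.31) and ITGA1 (0.75) had the largest positive differences on the log2 scale, that is, the response was more positive in 769-P. Their adjusted p-values with the block (limma) were 0.0515, 0.0689, 0.0672 and 0.0692, and without it 0.854 for LAMB2 and 0.9997 for the other 3. Limma-voom on the recovered reads with the block, added after seeing the data, called these 4 of 25 members. It called 569 more positive and 476 more negative of all 16209 genes. ITGA1 was not tested within 769-P, where it was under 0.5 FPKM. For the 4 genes lower in both lines the intervals of the difference with the block ran from -0.09 to 0.71 for ITGA2, from -0.20 to 0.18 for ITGAV, from -0.22 to 0.32 for LAMA5 and from -0.33 to 0.09 for LAMC1.

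The genes around these members were followed in 3 lists. Of the laminin receptors other than integrins and hemidesmosome parts, 4 of 8 tested were higher after siNUF2 in 769-P with the block and 0 lower, and 3 of 9 were higher and 0 lower in ACHN, against 13.6% and 13.9% of all genes in 769-P and 7.14% and 5.05% in ACHN. Without the block none was called in either line. The genes called in both were the syndecans SDC4 and SDC1, heparan sulfate co-receptors, and PLEC, which encodes plectin and links ITGB4 to keratin. PLEC stood at 69.3, 54.1 and 49.5 FPKM in 769-P siControl and at 84.6, 71.7 and 74.1 FPKM after siNUF2 (log2 difference 0.43 with the block, adjusted p = 0.0125), and in ACHN its log2 difference was 0.24 (adjusted p = 0.0369). The list's median log2 difference was 0.20 in 769-P and 0.18 in ACHN, against -0.01 and 0.01 over all genes.

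Of the other matrix ligands, 2 of 8 tested were higher and 1 lower in 769-P without the block, and 4 higher and 1 lower with it, against 5.26% and 4.71% of all genes without and 13.6% and 13.9% with the block. THBS1, which encodes thrombospondin, rose by 1.65 on the log2 scale in 769-P, NPNT, a ligand of integrin alpha8 beta1, rose by 0.89, and NID1, which encodes nidogen and binds the laminin gamma1 chain, fell by 0.94 (limma, adjusted p = 0.0059, 0.0194 and 0.0051). In ACHN with the block THBS1 was higher by 0.53, and NID1 (-0.52), SPP1 (-0.33) and HSPG2 (-0.27) were lower, 1 and 3 of 12 tested, against 7.14% and 5.05% of all genes. NID1 lay at or below 63.6 FPKM in the 769-P knockdown libraries (51.6, 63.6 and 54.5 FPKM), under every control library (mean 109.5 FPKM). Between the lines under siControl 1 of 11 tested ligands was higher in 769-P (NID1) and 9 were lower, against 32.2% and 29.3% of all genes, with a median log2 difference of -3.90 against 0.04 over all genes. Of those 9, TNC, NID2 and FBN1 were under 0.5 FPKM in every 769-P siControl library and passed the filter through ACHN alone, so that they could hardly fail to be lower.

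Of the cytoplasmic linkers and signalling genes, which couple integrin tails to actin, 25 were tested in 769-P. Without the block 1 was higher (TLN1, talin, 0.31) and 1 lower (BCAR1, -0.30), against 5.26% and 4.71% of all genes. With the block 5 were higher and 5 lower, against 13.6% and 13.9% of all genes. In ACHN 1 of 29 was higher (TNS3) and 1 lower (TNS1) with the block and none without it, against 7.14% and 5.05% of all genes with the block. The list's median log2 difference was -0.01 in 769-P and -0.05 in ACHN. Between the lines under siControl 10 of 29 were higher and 13 lower in 769-P, against 32.2% and 29.3% of all genes, and 4 of the 13 (FERMT1, LIMS2, PTK2B and TGFB1I1) passed the filter through ACHN alone.

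Several members share exon bases with other genes in GENCODE 29, so that their levels depend on how shared reads were counted, which is not given in the sources used here. ITGB3 shares 51.6% of its exon bases with AC068234.1 on the same strand, ITGB7 42.1% with ZNF740 on the opposite strand and ITGB6 20.6% with AC092153.1 on the same strand. Smaller shares were those of LAMA1 (11.1%), ITGAE (7.59%), ITGA1 (6.39%, in part with PELO on the same strand) and ITGA6 (5.37%). ITGB4, LAMB2, LAMC1 and ITGA2 share none, and ITGAV and LAMA5 share 2.47% and 2.54%.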

How the data were processed

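RNA from 12 libraries of 769-P and ACHN cells (siNUF2 and siControl, 3 libraries a group) was sequenced by the study, which trimmed reads with fastp. The deposited values are FPKM per gene on GRCh38, computed by the authors before deposit. The submitters' processing notes name HISAT2 2.0.5 and featureCounts 1.5.0-p3, and the annotation release and the strand setting are not given in the sources used here. No counts were used as deposited. Reads recovered from the steps of the FPKM values with GENCODE 29 exon lengths were whole within 0.02 reads for 96.2% to 96.6% of the low values checked, and totalled 29156132 to 38662438 a library. They were recovered for 36 of the 38 members (not for ITGAM and LAMA2).

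FPKM values were scaled between libraries by trimmed means (30% of log ratios and 5% of levels trimmed), a gene was kept where 3 or more libraries reached 0.5 FPKM after scaling, and log2(FPKM + 0.1) was tested with limma 3.58.1 (R 4.3.3, with a trend of the variance on the level) on the libraries of each comparison, with Benjamini-Hochberg adjustment over all genes kept. A fold change on this scale understates the change of low genes. The count-based test of the study was not run, since the values used were FPKM, and limma-voom on the recovered reads served as an alternative. Exact permutation tests were two-sided. Summaries were made with pandas 2.3.3 and NumPy 2.4.6 and permutation tests with SciPy 1.17.1 in Python 3.11.15, and figures were drawn with matplotlib 3.10.9. The fits were also run on simulated data with 200 changed genes. The simulated libraries varied independently, with no shared effect of the replicate number, so that they cannot check the choice of the block.

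Replicate numbers come from the sample titles. Within a line, the deviations of same-numbered siNUF2 and siControl libraries from their group means correlated over all genes at 0.352, 0.276 and 0.184 in 769-P and at 0.650, 0.737 and 0.460 in ACHN, and so the numbers were taken to pair them. Across lines the same correlations under siControl were -0.0586, -0.0150 and 0.0401, and the numbers were not taken to pair libraries. Alternatives were other pseudocounts (1 and 0.01), no filter, no scaling or median-ratio scaling, the block, 1 fit over all 12 libraries, leaving out each library, and limma-voom on the recovered reads.

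Members and gene lists were chosen with earlier results of these data known. Values per library are given for members called in a fit with or without the block, at most the 10 largest changes per comparison and direction, and for their partner chains, and the other members by ranges and counts. Other genes were counted as lists. The values of 1 member are not reported here, and it stays in the counts.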

Additional observations from a re-analysis of the deposited data

Results flagged for a closer look

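For 3 laminin chains every same-numbered pair moved up after siNUF2 in 769-P and every pair moved down in ACHN. They were picked from these same data because their responses differed, and the share of all genes with this pattern is not given here. The tests of the difference below are thus on genes chosen for it and are no separate support. LAMB2 rose from siControl to siNUF2 by 0.55, 0.63 and 1.26 on the log2 scale in the 769-P pairs and had differences of -0.13, -0.05 and -0.11 in the ACHN pairs. The difference between the responses was 0.90 (SE 0.18 with the block, limma, adjusted p = 0.0689).

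LAMB1 had pair differences of 0.33, 0.31 and 0.61 in 769-P and of -0.17, -0.05 and -0.31 in ACHN, and the responses differed by 0.59 (SE 0.10 with the block, adjusted p = 0.0515). LAMA3 had pair differences of 0.05, 0.21 and 0.24 in 769-P and of -0.14, -0.05 and -0.03 in ACHN, and the responses differed by 0.23 (SE 0.07 with the block, adjusted p = 0.138). None of the 3 differences passed the threshold in these limma fits with or without the block. In limma-voom on the recovered reads with the block, which was added after seeing the data, LAMB2 (0.92, adjusted p = 0.0015) and LAMB1 (0.60, adjusted p = 0.0013) passed it and LAMA3 (0.25, adjusted p = 0.0519) did not.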

How the results depend on the processing

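The count of members called between the lines under siControl (14) was 14 with the replicate block, another pseudocount, no filter, other scalings or 1 fit over all libraries, though no filter gave 6 higher and 8 lower in place of 4 and 10. Without the filter 37 members were tested, and 5518 of all 33760 genes were called higher and 5716 lower. Limma-voom called 15 of 24 members, against 4500 higher and 4673 lower of all 15060 genes. With the block it called 17 of 24, against 4367 higher and 4689 lower. The count lay between 9 and 13 when a library was left out, with 9 of 20 without ACHN siControl replicate 3. That fit called 4461 higher and 2826 lower of all 13973 genes. After siNUF2 the count of members (13) lay between 6 and 11 when a library was left out, with 6 of 20 without ACHN siNUF2 replicate 3. That fit called 4290 higher and 2836 lower of all 13910 genes. For the knockdown in 769-P (3) the paired fit with the replicate block called 9, and that fit without a pair between 5 and 11, against the shares of all genes given above. One fit over all 12 libraries called 1 of 27, against 419 higher and 281 lower of all 16564 genes. Limma-voom on recovered reads called 6 of 20, against 999 higher and 876 lower of all 13920 genes. With the block limma-voom called 13 of 20, against 2595 higher and 2515 lower. In ACHN (0) the replicate block gave 6, and the blocked fit without pair 1, 2 or 3 gave 1, 4 and 0, against the shares of all genes given above. There limma-voom with the block called 13 of 25 members, against 1691 higher and 1754 lower of all 14828 genes. For the difference of the responses (0), limma-voom with the block called 4 of 25 (ITGA1, ITGB4, LAMB1 and LAMB2, all more positive in 769-P) and the block alone 0. Over all 16209 genes that limma-voom fit called 569 more positive and 476 more negative. The limma-voom fits and the blocked fits without a pair were chosen after seeing the data. Without the block, LAMA5 in ACHN ranged from -0.90 to 0.0167 on the log2 scale when a library was left out, positive without siControl replicate 1, and LAMB3 from -1.37 to 0.0147, positive without siNUF2 replicate 2. The cause was not tested. Over the 44 values of named genes, 585 alternatives kept the direction and the side of the threshold, 44 lost the call, 50 gained it and 2 turned the direction. Over all genes the knockdown gave 357 to 5110 calls in 769-P, and 0 to 3445 in ACHN. Genes near 0, such as LAMA1 in 769-P at 7 to 11 reads, are limited by depth.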
